A study of Homo sapiens with 6 samples.

Results

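The 61 genes described here are 43 collagen chains and 18 other components of basement membranes and their surrounding matrix, out of 18417 genes measured. They were chosen by symbol. A gene belonged if a probe set of the array was annotated to it alone and its symbol was that of a collagen α chain or 1 of 18 named matrix genes, and the probe set with the highest mean over all arrays stood for the gene. The cells were HT29, an established human colorectal adenocarcinoma line, grown for 7 days. Of 6 arrays, 3 came from cells labelled as carrying a laminin α1 expression construct and 3 from cells labelled as carrying a control construct, each from a separate culture passage per the series' design text. Neither the promoter and sequence of the construct nor the number of clones behind each group is given in the sources used, so the spread between arrays is that between passages. COL17A1 and COL6A4 were not analysed here.

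A basement membrane is a sheet of matrix under epithelia, built on a laminin network and a collagen IV network. Nidogens and the proteoglycan perlecan link the networks, and agrin, collagen XVIII and the Fraser complex proteins tie the sheet to cells or to the tissue below. Fibrillar collagens form the cables of the stroma and in the gut come mainly from fibroblasts, while matricellular proteins such as thrombospondin-1 and matrix Gla protein modulate cells and mineral rather than build structure. The laminin α1 chain is a subunit of some laminins, so the comparison asks what the genes of its partners in the matrix do in cells labelled with that construct.

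The probe set of LAMA1, which encodes the laminin α1 chain, averaged 5.74 ± 0.04 in the arrays labelled laminin α1 and 5.65 ± 0.05 in the arrays labelled control (log2 expression, SD, n = 3 each). The difference of 0.09 did not pass limma's test (adjusted p = 0.535). Every laminin α1 array lay above every control array, as for 9.21% of all genes. The mean of LAMA1 over all arrays was at the 27.8th percentile of all genes, where signal is low. Whether its probes match the sequence of the construct is not given, so LAMA1 does not check the labels, and each direction below goes by the labels. All values are log2 expression per probe set, a scale on which levels of different probe sets cannot be set against each other. Differences are laminin α1 minus control, and a gene was called when its adjusted p in a limma fit over 13812 genes was below 0.05. At an unadjusted p under 0.05 in that fit, 1093 of the 13812 genes were higher and 1217 lower.

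Most of these matrix genes differed little between the groups, and 4 were called. In the arrays labelled laminin α1 MGP rose at least 2.78-fold, with the level filter as the floor for its dim control arrays (3.59-fold as measured), and FREM2 rose 1.40-fold, while HSPG2 was 1.29-fold lower and COL27A1 was 1.24-fold lower. MGP encodes matrix Gla protein, an inhibitor of calcification. FREM2 encodes a Fraser complex protein, HSPG2 perlecan and COL27A1 the chain of a fibrillar collagen. Of the 61 genes 39 had a mean over all arrays above the level filter, log2 5.50, and were tested, which left 2 higher, 2 lower and 35 not past the test. Called genes made up 10.3% of the 39 tested, beside 5.29% of all genes tested, with 2.69% of all genes higher and 2.59% lower. The count includes MGP, whose control mean lay below the filter and which was tested through its level in the arrays labelled laminin α1. Less RNA per cell and fewer cells making a transcript cannot be told apart in such bulk samples.

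**Figure D1:**
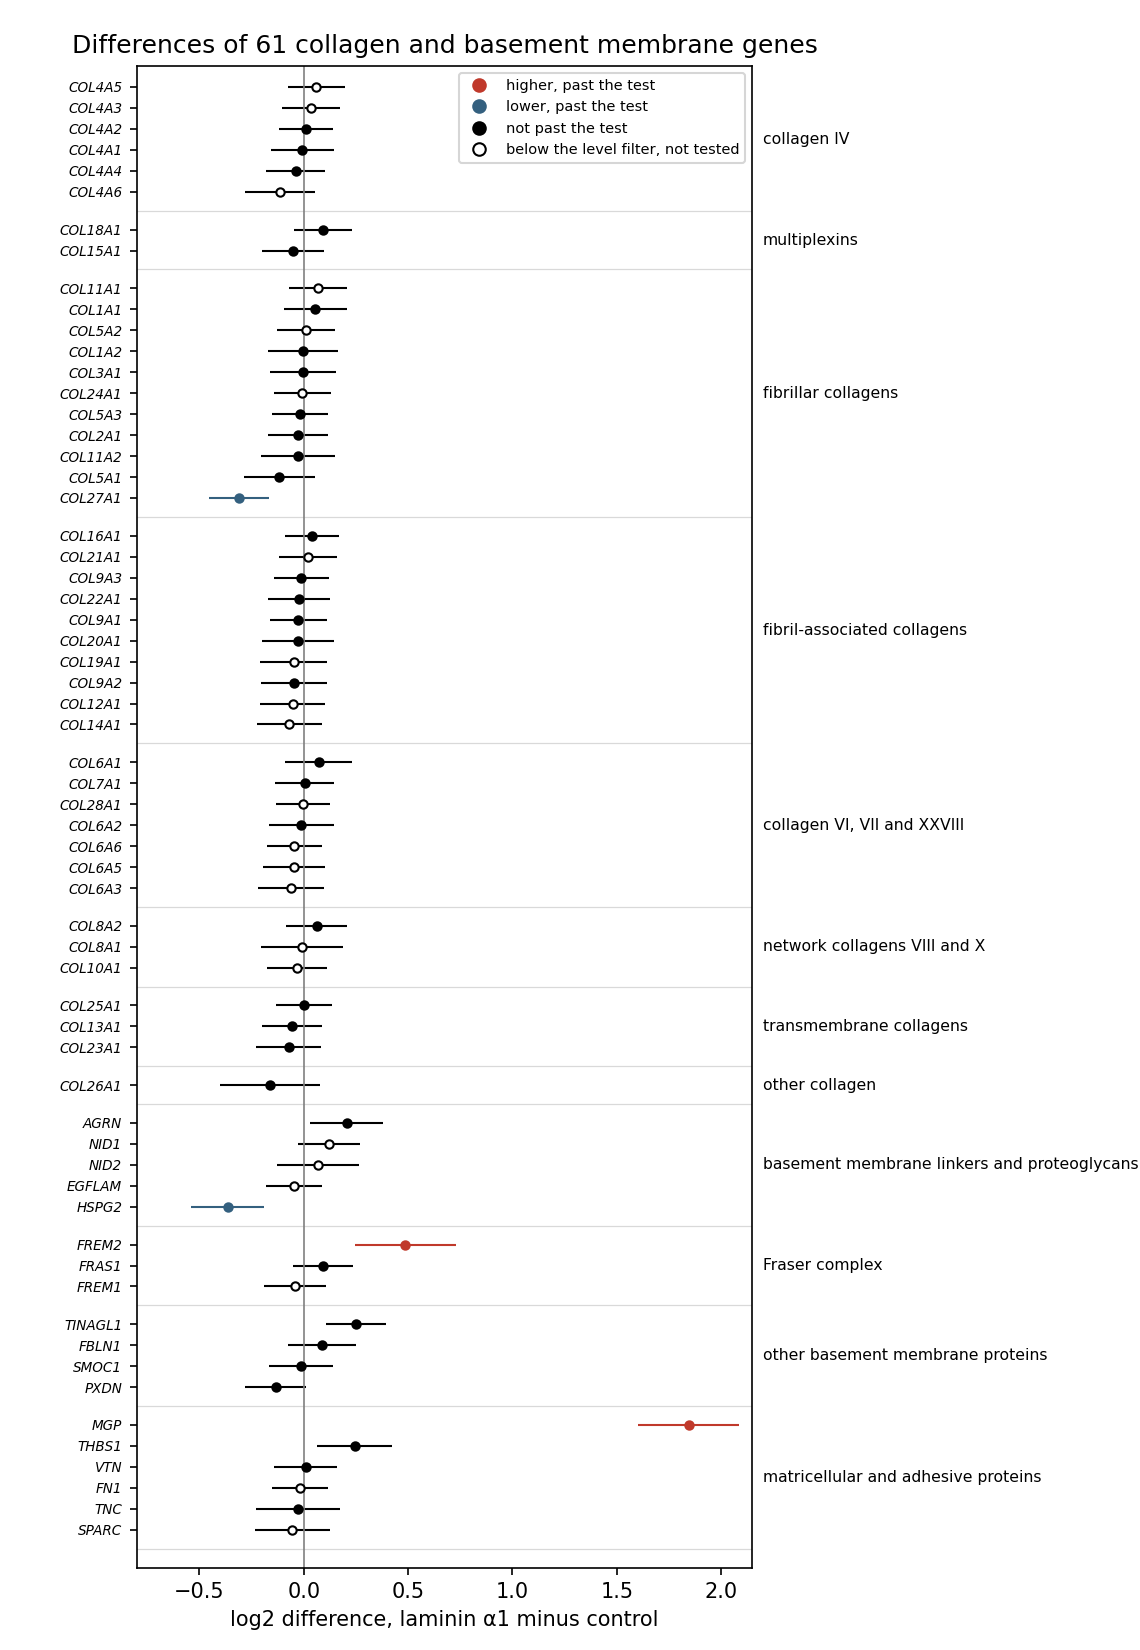
Log2 difference (laminin α1 minus control) with its 95% interval for each of the 61 genes, grouped by role, from the limma fit without the level filter. Red points are called higher, blue points called lower, black points did not pass, and open points lay below the level filter. MGP, FREM2, HSPG2 and COL27A1 stand off the zero line while the collagen chains other than COL27A1 lie between -0.16 and 0.09.

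The groups did not overlap for 9 of the 61 genes, or 14.8%, beside 19.5% of all genes on the array. In 6 of the 9 the arrays labelled laminin α1 were all higher, a pattern that 9.21% of all genes showed, and in 3 all lower, as for 10.3% of all genes. An exact two-sided permutation test of 3 against 3 arrays cannot give a p below 0.1, so the limma fit carries the calls. The median difference was -0.01 for the 61 genes and -0.01 for all genes. The median size of a difference, sign left aside, was 0.05 for the 61 genes and 0.07 for all genes.

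**Figure D2:**
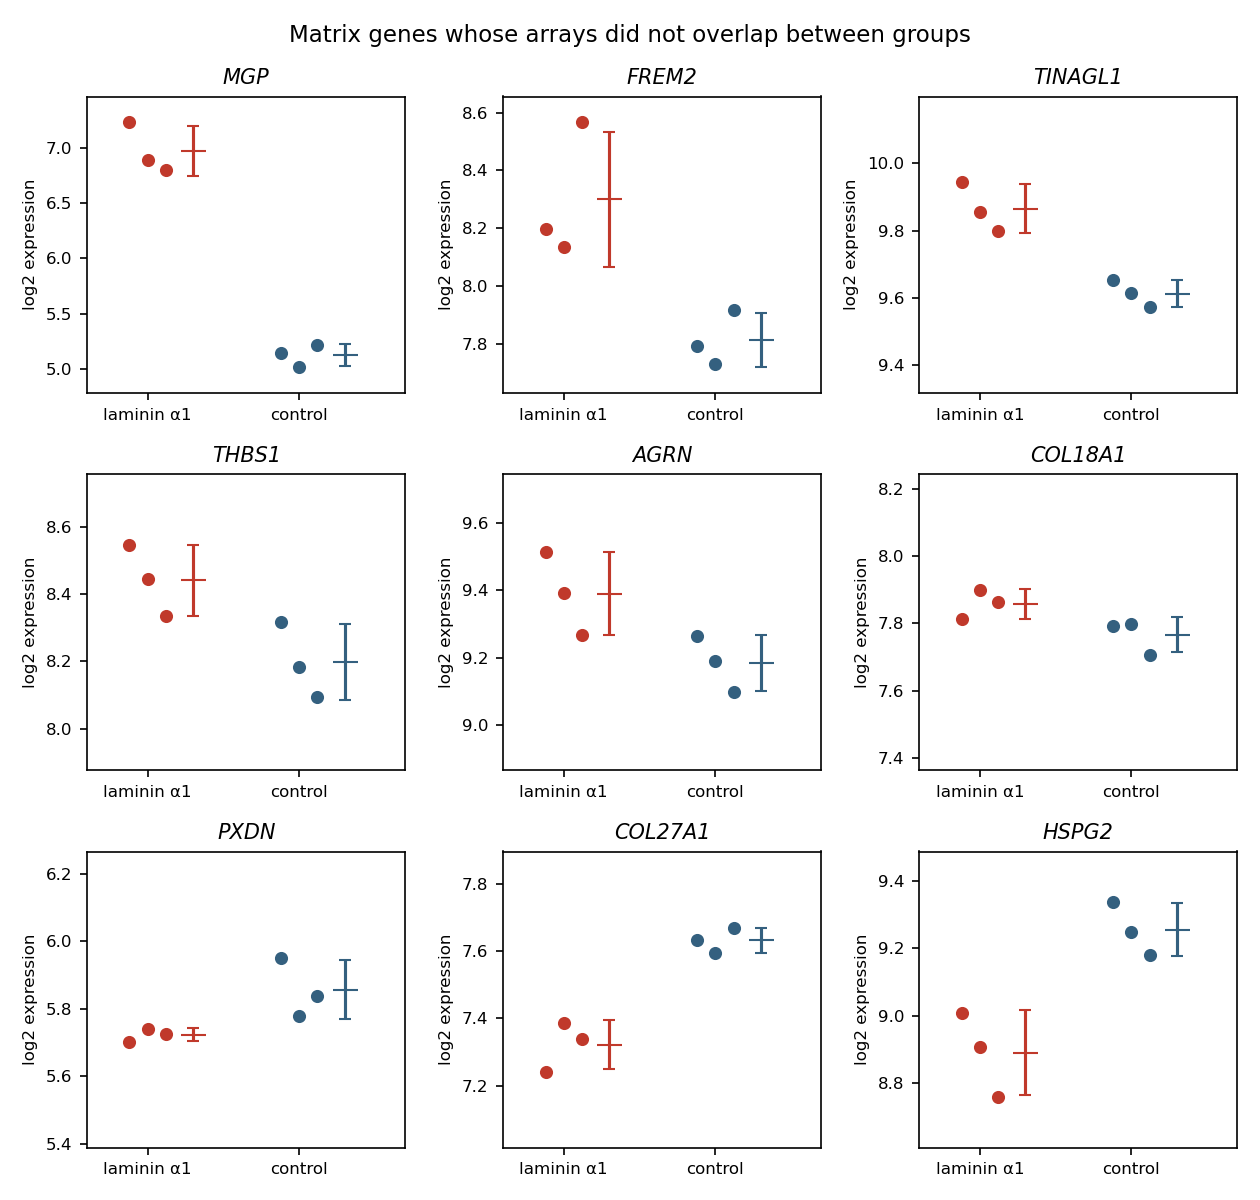
Log2 expression on each array for the 9 genes whose groups did not overlap, with the mean and SD of each group beside the 3 points. The laminin α1 arrays are red and to the left of the blue control arrays, and each panel has its own range of the vertical axis. MGP has the widest gap between groups, while THBS1, AGRN, COL18A1 and PXDN have gaps under 0.05.

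Upstream sequence was available for 47 of the 61 genes from RefSeq (GRCh38.p14), and the 250 bases before the annotated start are shown for the called genes among them. Capitals mark matches, on either strand, to any of 4 motifs searched for. They are GGGCGG, the letters of a GC box, then CCAAT, the core of a CCAAT box, then TATAAA, the letters of a TATA box, and last TGANTCA, which AP-1 factors bind. None of the 4 contains another, but copies of 1 motif may overlap. The sequences run 5′ to 3′ along the gene. The window of COL27A1 lies at chr9:114155287-114155536 on the plus strand, FREM2 at chr13:38686827-38687076 on the plus strand and HSPG2 at chr1:21937311-21937560 on the minus strand.
FREM2: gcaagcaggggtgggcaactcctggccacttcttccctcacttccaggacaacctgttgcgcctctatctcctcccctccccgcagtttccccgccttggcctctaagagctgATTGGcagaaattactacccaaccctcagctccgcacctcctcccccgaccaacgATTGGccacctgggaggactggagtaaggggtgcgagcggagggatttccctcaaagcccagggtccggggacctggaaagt
HSPG2: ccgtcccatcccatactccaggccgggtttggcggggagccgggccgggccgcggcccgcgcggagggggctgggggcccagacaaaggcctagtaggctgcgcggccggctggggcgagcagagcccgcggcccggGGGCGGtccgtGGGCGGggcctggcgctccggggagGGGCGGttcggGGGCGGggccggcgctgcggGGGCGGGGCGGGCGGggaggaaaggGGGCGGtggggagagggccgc
COL27A1: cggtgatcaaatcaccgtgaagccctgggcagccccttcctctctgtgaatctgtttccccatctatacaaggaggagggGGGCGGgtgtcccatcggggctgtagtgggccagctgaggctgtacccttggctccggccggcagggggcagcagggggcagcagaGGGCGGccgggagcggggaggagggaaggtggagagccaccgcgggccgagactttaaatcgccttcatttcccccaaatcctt
The window of HSPG2 has a G and C content of 82.8% and 33 CpG dinucleotides, that of FREM2 61.2% and 9, and that of COL27A1 64.4% and 13, beside medians of 58.0% and 11 over all 35116 RefSeq windows. GGGCGG occurs at 8 places in the HSPG2 window, some overlapping, and at 2 in that of COL27A1. FREM2 has 0 such matches but 2 of CCAAT, both on the opposite strand, beginning 137 and 82 bases before the start. GGGCGG was found in 42.6% of all windows and in 30 of the 47 of this set, and CCAAT in 32.0% and in 18. TATAAA was found in 10.7% of all windows and in 5 of the 47, while TGANTCA was found in 6.57% and in 0. The 47 were counted with 1 window per gene, while the 35116 were not reduced to 1 per gene, so these shares are over unlike sets. These matches describe the letters of the windows.

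The type IV collagen chains, which form the network of every basement membrane, did not move in these arrays by an amount the fit could detect. COL4A1 had values of 5.81, 5.98 and 5.95 in the arrays labelled laminin α1 and 5.92, 5.96 and 5.89 in the arrays labelled control. COL4A2, whose chain assembles with that of COL4A1 into the common form of collagen IV, had 6.65, 6.63 and 6.65 in laminin α1 arrays and 6.62, 6.68 and 6.62 in control arrays. In both genes the groups overlapped, with differences of -0.01 (95% interval -0.16 to 0.15) for COL4A1 and 0.01 (-0.12 to 0.14) for COL4A2. COL4A4 was the other chain above the filter, with a difference of -0.04 (adjusted p = 0.840). Its mean over all arrays, 5.51, was barely above the filter, and that of COL4A1 was 5.92. Low signal therefore limits what the small differences of these chains show. COL4A3, COL4A5 and COL4A6 lay below the filter, and their differences of 0.04, 0.06 and -0.11 come with intervals that include 0 in the fit without the filter. In limma's test 0 of the 3 chains tested were called, and 0 passed at an unadjusted p under 0.05.

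The multiplexins COL15A1 and COL18A1, which carry both collagen stretches and glycosaminoglycan chains at the outer face of basement membranes, did not pass either. COL18A1, whose product is cut to release endostatin, had 7.81, 7.90 and 7.86 in the arrays labelled laminin α1 and 7.79, 7.80 and 7.71 in the arrays labelled control. Every laminin α1 array was above every control array, but by 0.09 in the mean (adjusted p = 0.539). COL15A1, with a mean of 5.61 close to the level filter, had a difference of -0.05 (adjusted p = 0.780).

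Of the linkers and proteoglycans HSPG2 and AGRN were above the level filter, and HSPG2 was called lower. HSPG2, probe set 7913450, whose GC-rich window is printed with the other promoters, had values of 9.01, 8.91 and 8.76 in the arrays labelled laminin α1, against 9.34, 9.25 and 9.18 in the arrays labelled control. The lowest control array lay above the highest laminin α1 array, and the difference of -0.37 (SE 0.08, 95% interval -0.54 to -0.19) passed limma's test at adjusted p = 0.0266. AGRN, which encodes agrin, a heparan sulfate proteoglycan that binds laminin and dystroglycan, had 9.51, 9.39 and 9.27 in laminin α1 arrays and 9.26, 9.19 and 9.10 in control arrays. The groups of AGRN were separated by less than 0.01 at their nearest arrays, and its difference of 0.21 (95% interval 0.03 to 0.39) did not pass (adjusted p = 0.216). With the replicate number as a block in limma AGRN passed (adjusted p = 0.0442). HSPG2 was no longer past the threshold with laminin α1 replicate 2 left out (adjusted p = 0.0975), nor with control replicate 1 (adjusted p = 0.112) or control replicate 2 (adjusted p = 0.109) left out.

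The nidogens, NID1 and NID2, lay below the level filter in both groups. NID1 had 4.90, 5.05 and 4.95 in the arrays labelled laminin α1 and 4.80, 4.82 and 4.91 in the arrays labelled control, overlapping by 1 array, and NID2 averaged 5.05 ± 0.03 in laminin α1 arrays and 4.98 ± 0.18 in control arrays (SD, n = 3 each). In the fit without the filter the intervals were -0.03 to 0.27 for NID1 and -0.13 to 0.26 for NID2. EGFLAM, which encodes pikachurin, a ligand of dystroglycan in the retina, also lay below the filter, with a difference of -0.05.

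The Fraser complex is made of FRAS1, FREM1 and FREM2 proteins, which hold epithelium to the layer beneath it in the embryo. FREM2, probe set 7968678, had values of 8.20, 8.13 and 8.57 in the arrays labelled laminin α1, against 7.79, 7.73 and 7.92 in the arrays labelled control. All 3 laminin α1 arrays lay above the highest control array, and replicate 3 was the highest array in each group. The difference of 0.49 (SE 0.11, 95% interval 0.24 to 0.73) had a limma adjusted p of 0.0301. FRAS1 had 8.90, 8.89 and 8.89 in laminin α1 arrays and 8.89, 8.77 and 8.73 in control arrays, with a difference of 0.09 that did not pass (adjusted p = 0.544). FREM1 lay below the filter with a difference of -0.04. FREM2 was not called when control replicate 1 was left out (adjusted p = 0.109), nor when control replicate 2 was (adjusted p = 0.133).

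TINAGL1 encodes a secreted protein of basement membranes related to tubulointerstitial nephritis antigen. It had 9.94, 9.86 and 9.80 in the arrays labelled laminin α1 and 9.65, 9.61 and 9.57 in the arrays labelled control. The groups did not overlap, but the difference of 0.25 (95% interval 0.10 to 0.40) did not pass (adjusted p = 0.0609). Without laminin α1 replicate 3 it passed, at adjusted p = 0.0377, and so it did with the replicate number as a block in limma (adjusted p = 0.0207). PXDN, which encodes peroxidasin, the enzyme that forms sulfilimine crosslinks in collagen IV, had 5.70, 5.74 and 5.73 in laminin α1 arrays and 5.95, 5.78 and 5.84 in control arrays. Its groups did not overlap, and its difference of -0.13 did not pass (adjusted p = 0.360). FBLN1 and SMOC1, calcium-binding proteins of the same layer, had differences of 0.09 and -0.01.

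MGP had the largest difference of the 61 genes. Probe set 7961514 gave 7.23, 6.88 and 6.80 in the arrays labelled laminin α1, against 5.15, 5.02 and 5.22 in the arrays labelled control. The lowest laminin α1 array was above the highest control array by more than the whole spread of either group. The difference was 1.84 (SE 0.11, 95% interval 1.60 to 2.09) with a limma adjusted p of 7.50e-06. Since the control mean lay below the filter level, where signal is low, the rise is also given with that level as the floor, as at least 2.78-fold. MGP is made by cartilage and vascular smooth muscle cells among others, and its product must be carboxylated with vitamin K to act.

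Of the other matricellular and adhesive genes none of the 3 tested was called in limma's fit (1, THBS1, at an unadjusted p under 0.05), and FN1 and SPARC lay below the filter. THBS1, which encodes thrombospondin-1, a matricellular protein that activates latent TGF-β and restrains blood vessel growth, had 8.54, 8.45 and 8.33 in the arrays labelled laminin α1 and 8.32, 8.18 and 8.09 in the arrays labelled control. The lowest laminin α1 array was barely above the highest control array, and the difference of 0.24 (95% interval 0.06 to 0.43) did not pass (adjusted p = 0.143). With the replicate number as a block in limma THBS1 passed (adjusted p = 0.0224). FN1, the gene of fibronectin, was at 4.82 ± 0.03 in laminin α1 arrays and 4.84 ± 0.04 in control arrays (SD, n = 3 each). SPARC, a collagen-binding glycoprotein, was at 5.32 ± 0.12 in laminin α1 arrays and 5.37 ± 0.10 in control arrays. TNC, the gene of tenascin-C, and VTN, that of vitronectin, were tested, with differences of -0.03 (adjusted p = 0.924) and 0.01 (adjusted p = 0.968).

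The remaining collagens held 1 called gene. COL27A1 encodes the single chain of collagen XXVII, a fibrillar collagen of cartilage and developing epithelia with a shortened triple helix. Probe set 8157383 had values of 7.24, 7.39 and 7.34 in the arrays labelled laminin α1, against 7.63, 7.59 and 7.67 in the arrays labelled control. The gap between the groups was wider than the range of either one, and the difference of -0.31 (SE 0.07, 95% interval -0.46 to -0.16) had a limma adjusted p of 0.0229. With 1 array fewer the adjusted p was 0.0539 without laminin α1 replicate 1, 0.0576 without laminin α1 replicate 2, 0.0797 without control replicate 1, 0.0877 without control replicate 2 and 0.0840 without control replicate 3, so that the call held only when laminin α1 replicate 3 was the array left out.

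Of 11 fibrillar collagen chains 8 were tested, and 1 was lower, 0 were higher and 7 did not pass (0 were higher at an unadjusted p under 0.05). COL1A1 and COL1A2, the chains of collagen I, had differences of 0.06 and -0.00, and COL3A1, the chain of collagen III, -0.00. COL5A1, a chain of collagen V, which sets the width of collagen I fibrils, had 6.40, 6.39 and 6.30 in the arrays labelled laminin α1 and 6.55, 6.34 and 6.57 in the arrays labelled control, and control replicate 2 lay among the laminin α1 arrays. COL11A2 was the only gene of the 61 with several probe sets. Of its 3, the brightest had a difference of -0.03, and the other 2 held identical values on every array with a difference of 0.09, so the sign depended on the probe set while neither difference left the spread of the arrays.

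The fibril-associated collagens, which decorate fibrils or bridge them to other matrix, had 6 of 10 chains tested and 0 called in limma's test (0 at an unadjusted p under 0.05), with differences from -0.07 for COL14A1 to 0.04 for COL16A1. In the set of collagens VI, VII and XXVIII 3 of 7 chains were tested and 0 called (0 at an unadjusted p under 0.05). COL7A1, the chain of the anchoring fibrils that fasten basement membranes to the stroma, had a difference of 0.00 (95% interval -0.14 to 0.15). COL6A1 and COL6A2 had differences of 0.07 and -0.01, and COL6A3, whose chain completes the common collagen VI, lay below the filter. COL8A2 was the chain tested among collagens VIII and X, at 0.06 (adjusted p = 0.725). The transmembrane collagens COL13A1, COL23A1 and COL25A1 had differences of -0.06, -0.07 and -0.00 and did not pass. COL26A1 had the second most negative difference among the collagens, -0.16 (95% interval -0.40 to 0.08), with 6.68 in laminin α1 replicate 1 and between 7.04 and 7.20 on the other 5 arrays.

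Counted together, 27 collagen chains were tested in limma's fit, with 1 lower, 0 higher and 26 not past, and 0 higher and 1 lower at an unadjusted p under 0.05. The share called was 3.70%, near the 5.29% of all genes tested. At an unadjusted p under 0.05 in limma, 1093 of all 13812 genes tested were higher and 1217 lower. In the fit without the filter, the 95% interval lay within a change of 1.5-fold in either direction for all 43 collagen chains. For 39 of them it lay within 1.2-fold. Over all genes 96.4% had an interval within 1.5-fold and 59.6% within 1.2-fold. The 18 other matrix genes had 16 and 10 within those limits, the exceptions to the wider one being MGP and FREM2. Of the 43 collagen chains 16 lay below the filter, as did 6 of the 18 others. For such a probe set a narrow interval says little about the transcript, since probes near background barely respond to it.

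The median deviation of the 43 collagen chains from their control means was -0.06, 0.03 and -0.00 in laminin α1 replicates 1, 2 and 3 and 0.03, -0.03 and -0.00 in control replicates 1, 2 and 3. The control values lie around 0 by construction, and those of the laminin α1 arrays lay on both sides of it.

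FREM2 stood among genes that were also higher. Of the 5 tested genes on each side of it in RefSeq order, 5 were called higher and 0 lower, and 9 of 10 had a positive difference, with a median of 0.25. Of all genes tested 2.69% were called higher and 2.59% lower, and 8454 of the 18417 genes on the array had a positive difference. The 3 farthest on one side of FREM2, ALG5, EXOSC8 and SUPT20H, had differences of 0.84, 0.90 and 0.74, larger than that of FREM2. Its direct neighbours UFM1 and PROSER1 had 0.39 and 0.28. Of the 10 neighbours of HSPG2, 3 were called lower and 0 higher, with a median of -0.06. RAP1GAP had -0.36, CELA3B -0.38 and CELA3A -0.58, but the last of these share much of their sequence, so their probes may read the same RNA. The neighbours of MGP had a median of 0.00 with 1 called lower, PLBD1, and those of COL27A1 a median of -0.03 with 1 called lower, ZNF618. The part of such neighbourhoods in the differences of FREM2 and HSPG2 was not tested.

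**Figure D3:**
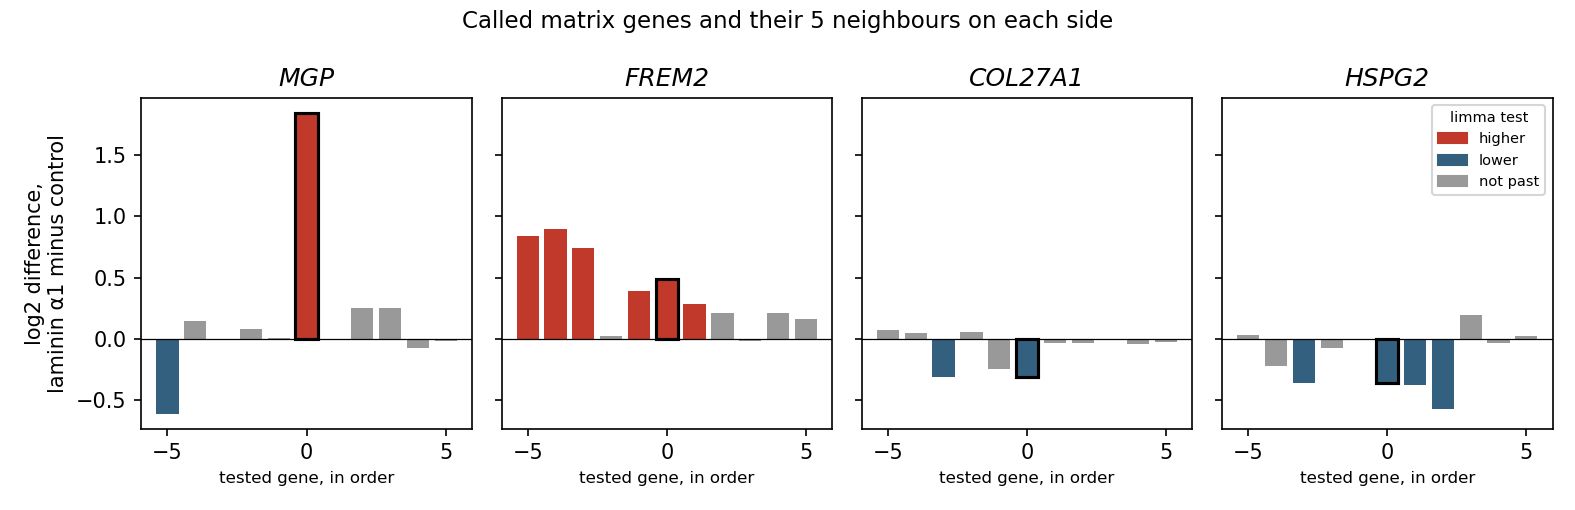
Log2 difference (laminin α1 minus control) of MGP, FREM2, COL27A1 and HSPG2, outlined in black at position 0, and of the 5 tested genes on each side in genome order. Red bars were called higher, blue bars lower and grey bars not called. Around FREM2 nearly every bar points up, whereas MGP stands alone as a tall bar.

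Collagen chains are modified in the endoplasmic reticulum by prolyl and lysyl hydroxylases, folded with dedicated chaperones, trimmed by proteinases outside the cell and crosslinked. Of 32 genes listed for collagen synthesis 31 were on the array and 26 tested. The list included PEPD, which acts on collagen fragments rather than in the steps above. In limma's test 4 of the 26 were higher, PEPD among them, and 0 lower (5 higher and 3 lower at an unadjusted p under 0.05). That is 15.4% called, beside 5.29% of all genes tested (2.69% higher and 2.59% lower). The median difference of the 26 was 0.01. TGM2, transglutaminase 2, which crosslinks matrix proteins, had 11.3, 11.2 and 11.1 in the arrays labelled laminin α1 and 10.4, 10.2 and 10.1 in the arrays labelled control, or 1.96-fold higher (adjusted p = 5.92e-05). LOXL4, a lysyl oxidase that oxidises lysines for crosslinks, had 8.17, 7.73 and 7.86 in laminin α1 arrays and 7.21, 7.18 and 7.01 in control arrays, or 1.72-fold higher (adjusted p = 0.00195). In both genes all laminin α1 arrays lay above all control arrays.

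P4HA2, a catalytic subunit of prolyl 4-hydroxylase, had 8.24, 8.11 and 8.04 in the arrays labelled laminin α1 and 7.72, 7.70 and 7.63 in the arrays labelled control, a difference of 0.45 (adjusted p = 0.00490). P4HA1, the other main catalytic subunit, had a difference of -0.04 and P4HB, their shared partner, -0.04, and neither passed. PEPD, the peptidase that recycles proline from collagen fragments, had a difference of 0.32 (adjusted p = 0.0452). In limma PEPD was not called when an array was left out, with an adjusted p of 0.112 for laminin α1 replicate 1, 0.158 for laminin α1 replicate 2, 0.105 for control replicate 1, 0.121 for control replicate 2 and 0.156 for control replicate 3, except that it was called without laminin α1 replicate 3. Nor was it called with trended and robust eBayes (adjusted p = 0.0512) or with probe sets tested separately (adjusted p = 0.127). Of the genes not called, LOXL1, another lysyl oxidase, had the most positive difference, 0.25 (adjusted p = 0.122). At the negative end PLOD2, a lysyl hydroxylase, had -0.34 (adjusted p = 0.162) and CRTAP, a partner of prolyl 3-hydroxylase, -0.23 (adjusted p = 0.129). SERPINH1, the collagen chaperone HSP47, had 0.01 (adjusted p = 0.977), and LOX itself lay below the filter.

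**Figure D4:**
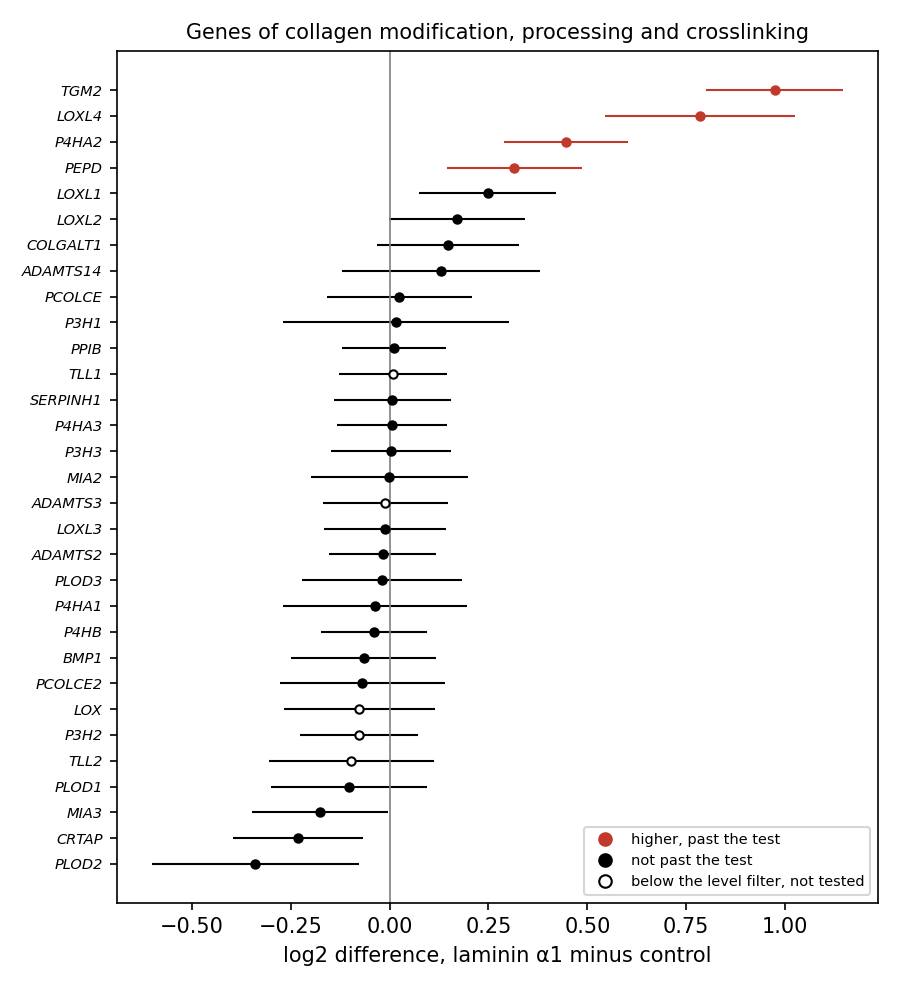
Log2 difference (laminin α1 minus control) with its 95% interval for the 31 listed genes on the array, sorted by size, from the limma fit without the level filter. They are genes of collagen modification, processing and crosslinking, with PEPD, which acts on collagen fragments, added. Red points were called higher, black points did not pass and open points lay below the filter. TGM2, LOXL4, P4HA2 and PEPD are the red points at the top, and the other genes lie between -0.34 and 0.25.

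Epithelial markers had means over all arrays above the level filter, while markers of other cell types lay on both sides of it. The 9 epithelial markers were EPCAM, KRT8, KRT18, KRT19, CDH1, CDH17, VIL1, CDX1 and CDX2, not all of them particular to the intestine. Of these 1, CDH17, an intestinal cadherin, was called lower. It averaged 4.93 ± 0.12 in the arrays labelled laminin α1, below the filter, and 6.58 ± 0.05 in the arrays labelled control (SD, n = 3 each). CDH17 was thus tested through its level in the arrays labelled control. Of 10 fibroblast and stromal markers 6 lay below the filter, among them DCN, LUM, POSTN and VIM, and 0 of the 4 tested were called in limma's test, with 1, TAGLN, lower at an unadjusted p under 0.05. Of 5 endothelial markers 4 lay below it, and the other, CDH5, did not pass (adjusted p = 0.838).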

How the data were processed

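The 6 arrays, 3 per group, were grouped by the sample titles. The deposited values are log2 expression per probe set. The authors produced them by RMA in Affymetrix Expression Console 1.1, as the submitters' processing notes list. RMA subtracts background, forces arrays to one distribution and summarises the probes of a set, so shifts shared by every gene are not visible. The table held 33297 probe sets, with array medians between 6.45 and 6.49, and was used without further normalization.

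The platform annotation gave exactly 1 symbol to 19460 probe sets, or 18417 genes, several to 1754 and none to 12083. For the 769 genes with several probe sets the one with the highest mean over all arrays was used. Genes with a mean above the 25th percentile were tested in limma 3.58.1 (lmFit, eBayes; R 4.3.3) without covariates, and p values were adjusted by Benjamini-Hochberg over all 13812. All adjusted p values are from that fit or a named alternative, and intervals are 95% intervals. Values and intervals of genes below the filter come from the fit of all 18417. Precision is limited by the number of arrays: the standard error of a difference had a median of 0.0754. The fit was tested on simulated data.

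The 61 genes, their 12 groups by role, the 32 genes of collagen synthesis and the cell type markers were chosen with earlier results of these data known. Genes given in full were those called, collagen IV chains, COL18A1, NID1, NID2, HSPG2, AGRN, FN1, SPARC, the 5 brightest of the set, and those without overlap and a difference of at least 0.3. Of the synthesis list these were the called genes. Other genes of the set were named to account for every group, and other genes of the synthesis list, THBS1, PXDN and the neighbours were named after their values were seen. Neighbours were taken from the order of RefSeq genes. Alternatives were other level filters, the mean of probe sets, separate probe sets, centring, quantile normalization run again, array weights, eBayes with trend and robust options, a replicate block and leaving out each array. Same-numbered arrays had deviations that correlated across genes at 0.39, 0.02 and 0.53, and differently numbered arrays at between -0.49 and 0.16. The labels do not say that a shared number marks a shared passage. The main fit therefore did not pair the arrays, and the replicate block is given as an alternative.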

Additional observations from a re-analysis of the deposited data

How the results depend on the processing

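MGP remained higher past the threshold in all 14 alternatives in which it was tested, and the filter at the 50th percentile removed it. The calls of HSPG2, FREM2 and COL27A1 held under both other filters, the mean of probe sets, centring, repeated quantile normalization, trended and robust eBayes, array weights and the replicate block. With all 33297 probe sets tested separately they were lost, at adjusted p = 0.0902, 0.121 and 0.0638, and so was that of PEPD, at 0.127. PEPD was also not called with trended and robust eBayes (adjusted p = 0.0512). The cause of these losses was not tested. Genes of the set called higher, 2 in the report, numbered 1 with the filter at the 50th percentile, 1 with separate probe sets, 10 with array weights, 5 with the replicate block and between 1 and 3 with 1 array left out. Those called lower, also 2, numbered 0 with separate probe sets (2 at an unadjusted p under 0.05 in limma) and between 0 and 2 with 1 array left out. Collagen synthesis genes called higher, 4 in the report, numbered 7 with array weights, and those called lower, 0 in the report, numbered 4 with array weights, 2 with the replicate block and between 0 and 2 with 1 array left out. All genes called, 730 in the report, numbered 4691 with array weights, 1596 with the replicate block, and with 1 array left out between 407, when it was control replicate 2, and 1214, when it was laminin α1 replicate 3. The cause of the rise with array weights was not tested, and the estimation of the weights stopped before it converged. The replicate block called AGRN, THBS1 and TINAGL1 higher (adjusted p = 0.0442, 0.0224 and 0.0207). Deviations of 4 of the 6 arrays correlated best with those of the array of the same number in the other group. MGP, FREM2, HSPG2, COL27A1, TGM2, LOXL4, P4HA2, PEPD and CDH17 kept their sign in every alternative in which they were tested. COL4A1, COL4A2 and COL4A4, with differences near 0, changed sign in 4, 3 and 1 of 14 alternatives. Signal near background limits what can be said of the 22 genes below the filter. It also limits tested genes close to the filter, such as COL25A1, COL4A4 and COL15A1 (means of 5.505, 5.51 and 5.61). The number of arrays limits the precision of all 61 genes.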
